A study of Mus musculus with 48 samples.

Results

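IGHG3 is the constant-region gene of the IgG3 heavy chain. It was 1 of the 8 heavy-chain constant genes named in the B cell receptor (BCR) libraries of the spleen and the lacrimal gland (LG), and its members were all sequences that the authors had annotated with it. These were 47038 of the 4834214 sequences in 48 libraries. In GRCm38, Ighg3 lies at chr12:113356224-113361232 on the minus strand, between Ighd and Ighg1. The gene was chosen by its share of the spleen counts in each group, so that share is given as a description and was not tested. The tests below used measures that did not enter the choice, namely mutations, HCDR3 length, V gene usage, evenness and sharing with other isotypes. Of these, sharing can depend on how much IGHG3 a spleen holds.

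A B cell first makes IgM and IgD from one rearranged VDJ segment and can then join the same segment to a downstream constant gene by class switch recombination. In the mouse, IgG3 is known as the IgG subclass of T cell independent responses, above all those to carbohydrate antigens of bacteria, and it is made readily by marginal zone and B-1 B cells. Sequences of one clone therefore share V gene, J gene and the third complementarity-determining region of the heavy chain (HCDR3), whichever isotype they carry. A clonotype was defined here as 1 combination of V gene, J gene and HCDR3 amino acid sequence, and it need not be 1 clone. Mutations in the HCDR3 can also spread 1 clone over several clonotypes.

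The recipients were C57BL/6 (B6) mice. In the NOD-FMT group, 10 mice were gavaged with feces from 30 NOD.B10.H2b donors older than 20 weeks that had autoimmune dry eye, and in the PBS-T group, 9 mice were gavaged with PBS. Both groups received antibiotics for 7 days, then gavage over 3 weeks from an age of 5 weeks, and the NC group of 5 mice received neither. Every mouse gave 1 spleen and 1 LG library. The gavage was a stored supernatant of the donor feces in PBS, and how many preparations were made was not given in the sources used here. Libraries were made from total RNA with primers in the first constant domain, and a count is 1 consensus sequence built from reads with the same unique molecular identifier.

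Nucleotide sequences that recurred without any difference in at least 3 mice of one tissue were removed, and the libraries kept between 40105 and 264365 counts in the LG and between 71859 and 2032338 in the spleen. IGHG3 held 288539 of the 11666610 deposited spleen counts (2.47%) and 1677 of the 2878417 deposited LG counts (0.0583%). The removal took 12.4% of the IGHG3 counts and 9.84% of all counts of the spleens. In the LG it took 30.8% of the IGHG3 counts and 9.83% of all counts, and most of that IGHG3 was in PBS-T mouse 5, which went from 1098 to 586 counts. The paper words its removal alike, as a step against cross-contamination, but gives a far smaller removed part in both tissues. Kept values here therefore rest on a harsher removal than the paper's, and the reason for the gap was not tested. A pair of LG libraries stood apart from the other 22. That of PBS-T mouse 5 had 17213 clonotypes of all isotypes, of which 2.14% were in its own spleen and 2.99% in the spleen of NOD-FMT mouse 3. That of NC mouse 2 shared 31.8% of its clonotypes with the spleen of NC mouse 3 and 19.7% with its own. In both, the own spleen had rank 2. These matches were not adjusted for depth. The spleen of NOD-FMT mouse 3 had the most deposited counts, 2302185, and that of NC mouse 2 the fewest, 86717. Each of the other 22 LG libraries, with 560 to 2504 clonotypes, matched its own spleen best, at 17.8% to 60.5%. The libraries hold heavy chains only, so tissue markers could not be checked. By group medians, IGHM was 68.5% to 74.0% of the spleen and IGHA 86.7% to 97.3% of the LG. Single PBS-T LG libraries lay far from this make-up: IGHA was 13.9% and IGHM 48.9% in PBS-T mouse 9, and IGHA was 42.3% and IGHM 25.0% in PBS-T mouse 2, while IGHA was 72.4% to 97.1% in the other PBS-T LGs.

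IGHG3 made up a larger part of the NOD-FMT spleens than of most other spleens. Its share of kept counts ran from 0.321% to 5.48% in the 10 NOD-FMT spleens, with a median of 3.02%. In the 9 PBS-T spleens it ran from 0.71% to 2.10% (median 1.03%). In the 5 NC spleens the range was 0.424% to 1.71% (median 0.824%). The groups overlapped: 7 of 10 NOD-FMT spleens lay above every PBS-T spleen, NOD-FMT mouse 3 was the highest of all, and NOD-FMT mouse 8 was the lowest of all. The lowest PBS-T share depended on the removal. It was that of PBS-T mouse 6, at 0.71% kept and 0.384% as deposited, where the total went from 215159 to 71859 counts. With shared sequences kept in the spleen with most counts, PBS-T mouse 6, at 0.242%, lay below NOD-FMT mouse 8, at 0.304%. As deposited, before the removal, 9 of 10 NOD-FMT spleens lay above every PBS-T spleen, and the medians were 2.94%, 0.993% and 0.843%. In bulk RNA, fewer cells of an isotype and less RNA per cell cannot be told apart.

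The LG held very little IGHG3. Its share of the LG counts was 0% to 0.197% in NOD-FMT mice (median 0.00884%), 0.00520% to 0.270% in PBS-T mice (median 0.0406%) and 0.00124% to 0.0420% in NC mice (median 0.00618%). No IGHG3 count was found in the LG of NOD-FMT mouse 8, where 0 of 92606 counts allows a share of up to 0.00324%, nor in that of NOD-FMT mouse 9, where 0 of 172029 allows 0.00174%. The spleen share was above the LG share of the same mouse in 24 of 24 mice. The 3 groups overlapped in the LG, and the highest value belonged to PBS-T mouse 5, whose library stood apart. Without it, the PBS-T values reached 0.0782%.

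**Figure D1:**
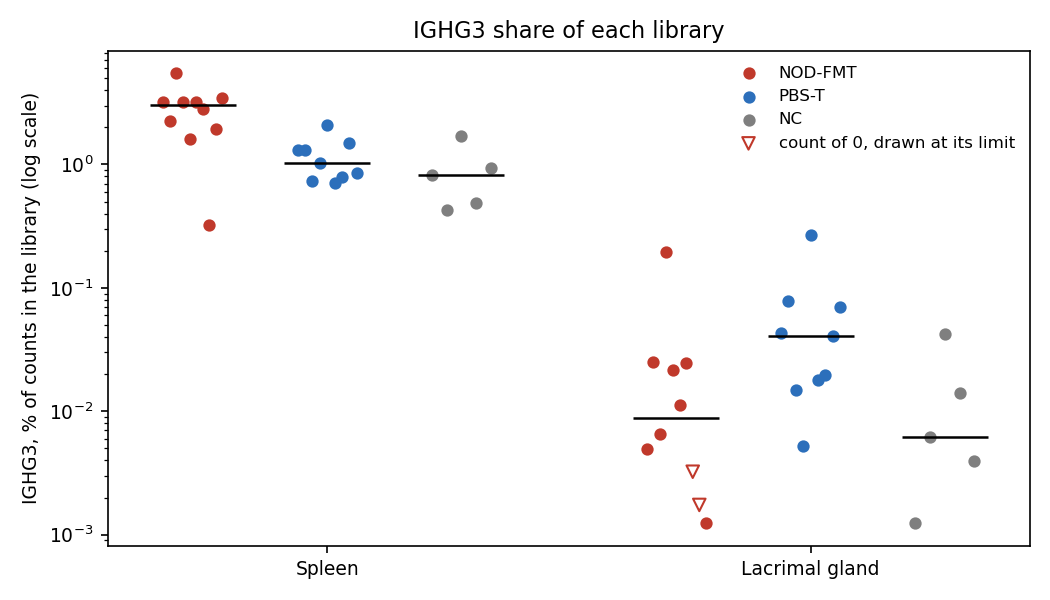
IGHG3 share of the kept counts of each library, in percent on a log scale, for the spleen and the LG of 10 NOD-FMT, 9 PBS-T and 5 NC mice; each point is 1 library, lines are group medians, and triangles mark the 2 LG libraries with a count of 0, drawn at the share that 3 counts would give. Spleens lie between 0.321% and 5.48%, above all LG libraries, which reach 0.270%.

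Among the other 7 constant genes, the spleen share of IGHG2B followed that of IGHG3 most closely, with Spearman's rho = 0.65 and Pearson's r = 0.51 over the 24 spleens. Without NOD-FMT mice 3 and 10, the spleens farthest from the median of IGHG3, r was 0.58. IGHG1 came next with rho = 0.36. Shares of one library sum to a whole and share its depth, so these coefficients are descriptive only.

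In most spleens, a few clonotypes carried much of the IGHG3. A median of 16.5 clonotypes of NOD-FMT spleens reached 50% of the kept IGHG3 counts (range 2 to 29), against 14 in PBS-T (7 to 37) and 9 in NC spleens (1 to 21). The spleens held 407 to 4204 IGHG3 clonotypes in NOD-FMT, 147 to 824 in PBS-T and 134 to 542 in NC mice. The largest clonotype of a spleen held 3.40% to 55.4% of its kept IGHG3 counts. Across mice, of the 19014 deposited IGHG3 clonotypes, 97.4% were found as IGHG3 in 1 spleen, and 162 in 3 or more. The removal acts on sharing itself, and after it 120 of 18683 clonotypes were in 3 or more spleens.

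The clonotype found in most spleens was IGHV8-5/IGHJ3 with the 8-residue HCDR3 AQMRGFAY. It was present as IGHG3 in all 24 spleens of all 3 groups, and no other of 19014 deposited IGHG3 clonotypes was. For IGHA, IGHG1, IGHG2B and IGHG2C no clonotype reached all 24 spleens, and for IGHM 54 of 2442154 did. The most widely found clonotype was in 23 spleens for IGHA, 22 for IGHG2C, 20 for IGHG2B and 9 for IGHG1. AQMRGFAY itself also had IGHG2C counts in all spleens but those of PBS-T mice 6 and 8. As deposited, it was first by IGHG3 count in 11 spleens, namely those of NOD-FMT mice 1, 2, 5, 6, 8 and 10, PBS-T mice 3, 7 and 9, and NC mice 2 and 4. After the removal of shared sequences it led in 0 spleens, and its highest share of the kept IGHG3 counts was 5.42%.

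As deposited, this clonotype carried 18880 IGHG3 counts. That was 1.74% to 28.7% of the IGHG3 counts of NOD-FMT spleens (median 9.90%), 0.202% to 29.8% in PBS-T spleens (median 2.59%) and 1.53% to 23.7% in NC spleens (median 9.86%). Low and high spleens occurred in every group, and the 3 ranges overlapped. Per 100000 counts of the whole library, it had 32.7 to 1279 IGHG3 counts in NOD-FMT (median 249), 2.87 to 296 in PBS-T (median 33.3) and 25.4 to 118 in NC spleens (median 49.5). Over all spleens together, 83.5% of its 22606 counts were IGHG3, 10.7% IGHM, 3.76% IGHG2C, 1.27% IGHG2B and 0.659% IGHA. By spleen, IGHG3 was 74.4% to 93.5% of its counts in NOD-FMT mice (median 87.0%). It was 22.5% to 91.2% in PBS-T mice (median 60.9%) and 54.4% to 85.7% in NC mice (median 68.4%). In PBS-T mice 4, 5, 6 and 8, the clonotype had more IGHM than IGHG3 counts. IGHM counts of the clonotype were present in every spleen, from 13 to 428. In the LG it had 2 IGHG3 counts, in 1 mouse.

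**Figure D2:**
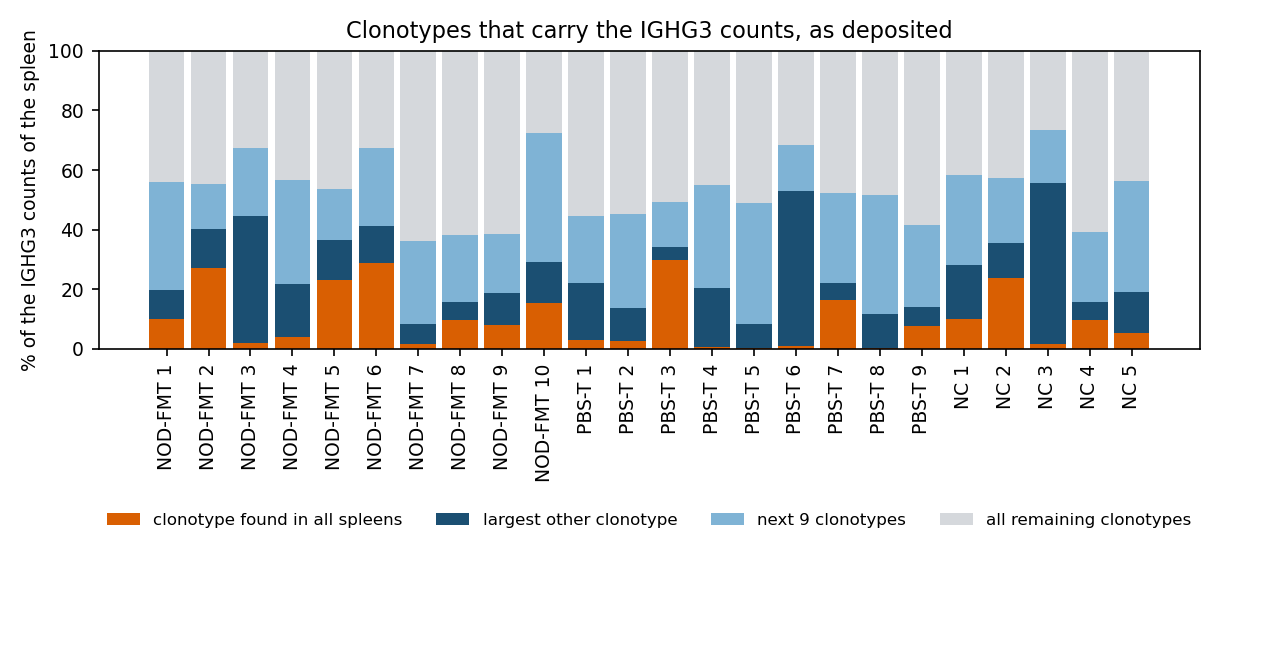
Share of the deposited IGHG3 counts of each of the 24 spleens, in percent, held by the IGHV8-5/IGHJ3 AQMRGFAY clonotype (orange), the largest other clonotype (dark blue), the next 9 (light blue) and all remaining clonotypes (grey). The orange part varies from 0.202% in PBS-T mouse 8 to 29.8% in PBS-T mouse 3, while a single other clonotype holds over 40% in NOD-FMT mouse 3, PBS-T mouse 6 and NC mouse 3.

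The nucleotide sequence behind these 8 residues differed between mice. Of 20 forms of the 24 bases, the following 7 include the leading form of 23 of the 24 spleens and are shown because spleens differed in them. Capitals mark the 3 positions at which the 7 differ.
form 1: gctcaaatgAgGggGtttgcttac
form 2: gctcaaatgAgAggGtttgcttac
form 3: gctcaaatgAgGggTtttgcttac
form 4: gctcaaatgAgAggAtttgcttac
form 5: gctcaaatgCgGggGtttgcttac
form 6: gctcaaatgAgAggTtttgcttac
form 7: gctcaaatgCgAggCtttgcttac

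Form 1 held 12463 of the IGHG3 counts (66.0%), was found in 21 spleens and led in 16. Form 2 held 4369 counts (23.1%) and led in NOD-FMT mice 3 and 10, with 1857 and 2356 counts. Form 3 led in PBS-T mice 4, 7 and 9, form 5 in PBS-T mouse 6 and form 7 in NC mouse 4. Form 4 occurred in NOD-FMT mouse 3 alone, with 632 counts, and that spleen had 0 counts of form 1. In 15 spleens, 1 form made up over 90% of the counts. In NOD-FMT mice 3 and 8, PBS-T mice 2 and 7 and NC mice 1, 2, 4 and 5, at least 2 of the 7 forms had over 10% each. Neighbouring clonotypes used the same HCDR3 with other V genes of the family, IGHV8-8 in 14 spleens and IGHV8-12 in 11, at no more than 0.928% of the IGHG3 counts of a spleen. IGHV8 genes are close in sequence, and the split of one rearrangement over several V calls was not tested.

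**Figure D3:**
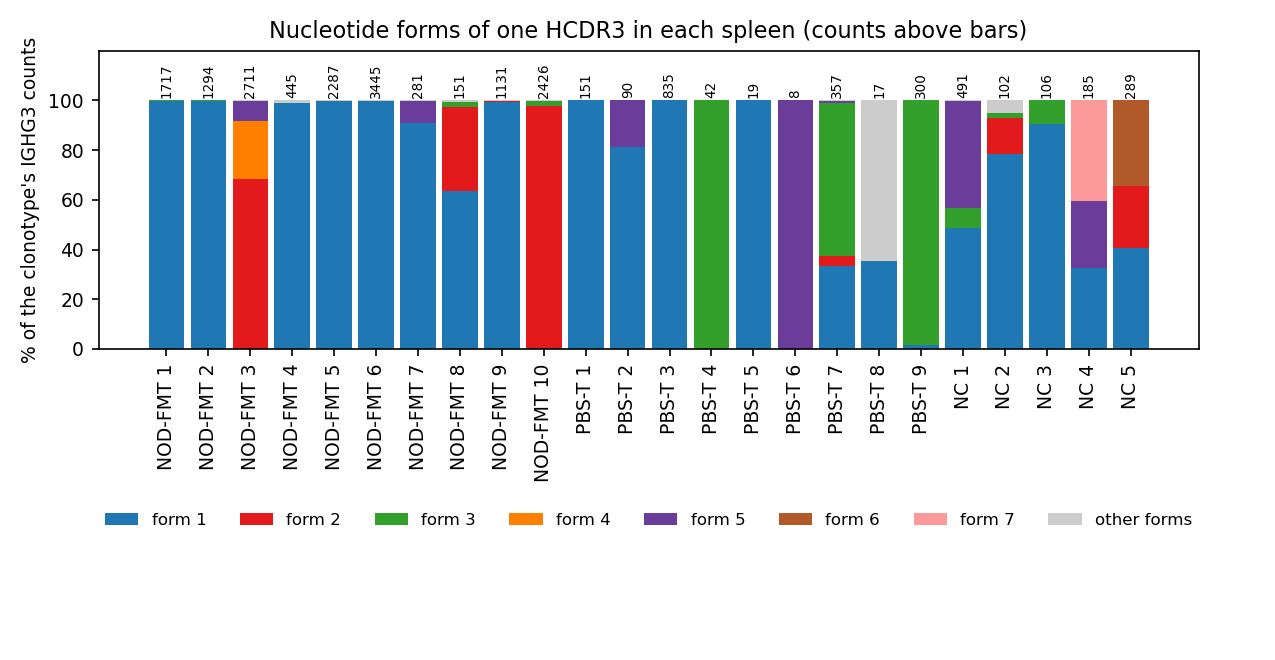
Nucleotide forms of the IGHV8-5/IGHJ3 AQMRGFAY HCDR3 among its deposited IGHG3 counts in each of the 24 spleens, in percent, with the number of counts above each bar. Form 1 leads in 16 spleens, form 2 in NOD-FMT mice 3 and 10, and form 3 in PBS-T mice 4, 7 and 9.

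The removal of shared sequences acted strongly on this clonotype. Only 8.78% of its IGHG3 counts were kept, and it made up 48% of all IGHG3 counts removed from the spleens. The clonotype carried few mutations, a mean of 1.36 to 2.55 mismatches to the germline V gene per sequence in the 11 spleens it led. In those spleens its lowest deposited mismatch number was 1. Its most abundant sequence in the spleen of NOD-FMT mouse 6, with 3187 counts, had 0 mismatches over 267 bases to Ighv8-5 of GRCm38 (chr12:115067560-115068002), although the lowest deposited number of the clonotype in that spleen was 1. The commonest number among IGHM sequences was also 1 for IGHV8-5.

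HCDR3s that differ from AQMRGFAY at its central residues were also prominent in IGHG3. Among them were AQMRAFAY with 13.2% of the deposited IGHG3 counts of NOD-FMT mouse 2, AQMRFFAY with 17.9% in NOD-FMT mouse 4, and AQMKGFAY, which was found in 10 spleens. Taken as one pattern, AQM followed by any 2 residues and FAY with IGHV8-5, the 15 such HCDR3s, AQMRGFAY included, made up 7.58% of the deposited IGHG3 counts of all spleens and 0.0350% of the IGHM counts. In NOD-FMT mouse 2 they reached 40.3% of IGHG3. Most of this was AQMRGFAY itself. The other 14 alone had 2977 IGHG3 counts in 16 spleens, or 1.03% of IGHG3 against 0.00556% of IGHM, and their largest share, 18.1%, was in NOD-FMT mouse 4. The second recurrent pattern was IGHV4-1 with an HCDR3 that starts ARLGYYG. It comprised 69 HCDR3s in 22 spleens, with 14271 IGHG3 counts, or 4.95% of IGHG3 against 0.388% of IGHM. Its largest share, 36.1%, was in a PBS-T spleen. IGHV4-1 belongs to the X24 family, known from antibodies to galactan. Both patterns were formed after their values had been seen, so they carry no test.

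Of the largest kept IGHG3 clonotype of each of the 24 spleens, 20 were found as kept IGHG3 in 1 spleen, and the other 4, those of NOD-FMT mice 1, 2, 3 and 5, in 4 or 5. The removal acts on sharing itself. As deposited, the leading clonotype was found as IGHG3 in 1 spleen for 11 of the 24 and in 2 or more for 13. AQMRGFAY was the leader in 11 of those 13. In the spleen of NOD-FMT mouse 3, IGHV1-59/IGHJ4 AREMDY had 53797 deposited IGHG3 counts, together with 29201 IGHG2B, 18519 IGHA and 7725 IGHM counts. Kept sequences of this clonotype made up 36.8% of the IGHG3 of that spleen. The removal had taken 12764 of its IGHG3 counts, although the other 6 spleens in which it was found held 12 counts in all. A second clonotype of that mouse, IGHV3-6/IGHJ4 ARWSRGGAMDY, held a further 13.3%.

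In NC mouse 3, IGHV1-26/IGHJ4 AREAGFYYDPMDY held 55.4% of the kept IGHG3 counts, and the closely alike IGHV1-26/IGHJ4 ARERGFYYDPMDY held 20.3% in PBS-T mouse 1. In PBS-T mouse 6, IGHV2-9-1/IGHJ2 ASQLTGTTQYYFDY held 24.3% of the kept counts and 51.9% as deposited. The removal, which looks at sequences of all isotypes, had taken 305 of its 429 IGHG3 counts. The other 9 spleens in which it was found held 15 counts in all, 0 of them IGHG3. The same clonotype had 166452 deposited IGHM counts in PBS-T mouse 6. In NOD-FMT mouse 10, IGHV7-3/IGHJ4 ARYPPGNAMDY and IGHV1-55/IGHJ2 ARNWADY held 16.4% and 15.5%. PBS-T mouse 4 had a pair of IGHV4-1/IGHJ4 clonotypes, ARLGYYGLMDY with 20.5% and ARLGYYGLMAY with 15.6%. NC mouse 1 was led by IGHV4-1/IGHJ1 ARMGYWGYFEV with 19.9%, and NOD-FMT mouse 1 by IGHV4-1/IGHJ1 ARLGYYGYFNV with 11.0%. Of the largest kept clonotypes, IGHV4-1 was thus the V gene in NOD-FMT mouse 1, PBS-T mouse 4 and NC mice 1 and 4.

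Further clonotypes with at least 10% of the kept IGHG3 counts of a spleen used diverse V genes. In NOD-FMT mice these were IGHV6-3/IGHJ2 TDIYYGNNY (10.9%, mouse 4), IGHV10-3/IGHJ1 VRGSTMVTTWYFDV (12.4%, mouse 6) and an IGHV1-26/IGHJ4 clonotype with an HCDR3 of 16 residues (11.8%, mouse 9). In PBS-T mice they were IGHV1-52/IGHJ4 ARGGYYSNFGALDY (11.6%, mouse 2), an IGHV1-53/IGHJ4 clonotype with an HCDR3 of 14 residues (11.8%, mouse 8) and IGHV1-80/IGHJ3 ARGPY (10.6%, mouse 8). In NC mice they were IGHV9-3/IGHJ4 ARRHGSSYNAMDY (15.2%, mouse 1), IGHV1-80/IGHJ2 ARGNYYGSSYGY (15.4%, mouse 2) and an IGHV14-4/IGHJ2 clonotype with an HCDR3 of 5 residues (14.6%, mouse 5). As deposited, 2 more passed 10%, IGHV4-1/IGHJ1 ARLGYYGYFDV with 13.4% in NOD-FMT mouse 5 and IGHV7-3/IGHJ2 ARYTPGSSYFDY with 12.7% in NOD-FMT mouse 6, found in 9 and 5 spleens. In the other spleens the largest kept clonotype held less: IGHV1-80/IGHJ2 ARGGY (5.40%), IGHV1-55/IGHJ4 ARTFMDY (6.65%) and IGHV1-53/IGHJ3 ARVEITGKAWFPY (6.73%) in NOD-FMT mice 5, 7 and 8, IGHV1-9/IGHJ2 ARGGERGDY (3.40%), IGHV6-6/IGHJ4 TPITAYAMDY (8.26%), IGHV1-59/IGHJ2 ARRPYSNYPFDY (6.82%) and IGHV1-62-2/IGHJ2 ARQLGDY (7.03%) in PBS-T mice 3, 5, 7 and 9, and IGHV4-1/IGHJ1 TRLGYYGYSDV (6.55%) in NC mouse 4.

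After AQMRGFAY, the clonotypes in most spleens as deposited IGHG3 were small. IGHV9-3/IGHJ4 AREPYAMDY was found in 12 spleens with 27 counts in all, and IGHV9-3/IGHJ1 ARDSNWYFDV in 11 with 32. IGHV1-76/IGHJ2 ARRGDGYYFDY and IGHV6-3/IGHJ3 TGDGFAY were found as kept IGHG3 in 6 spleens each, all NOD-FMT. Of the 120 kept IGHG3 clonotypes in 3 or more spleens, 31 were in NOD-FMT spleens only, 2 in PBS-T spleens only and 0 in NC spleens only. The NOD-FMT group has more mice and more clonotypes per spleen, and the difference in these counts was not tested. The mean number of kept IGHG3 clonotypes per spleen was 1261 in 10 NOD-FMT, 526 in 9 PBS-T and 396 in 5 NC mice. The counts were not adjusted for this. The removal also acts on them: ARDSNWYFDV was kept in 6 NOD-FMT, 1 PBS-T and 0 NC spleens, and deposited in 7, 3 and 1.

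Evenness was measured as Pielou's index, which is 1 when all clonotypes have the same count and falls as few clonotypes take most of it. At 332 IGHG3 counts per spleen, it was 0.679 to 0.913 in NOD-FMT mice (median 0.842) and 0.778 to 0.933 in PBS-T mice (median 0.851). The means differed by -0.0156, which was within the spread between mice (two-sided exact permutation test, p = 0.608, adjusted p = 0.702 over 5 comparisons). In NC mice it was 0.545 to 0.896. The lowest values were those of NC mouse 3 and NOD-FMT mouse 3, each with 1 dominant clonotype.

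Within a spleen, IGHG3 counts were less evenly spread than those of IGHM, IGHA and IGHG2B. With both isotypes thinned to the lower total, evenness averaged 0.701 ± 0.111 (SD, n = 24) for IGHG3 and 0.927 ± 0.0656 for IGHM, a difference of -0.226 with IGHG3 lower in 23 of 24 spleens (sign-flip permutation test over spleens, adjusted p = 2.5e-05). The difference was -0.119 to IGHA (23 of 24, permutation adjusted p = 3.33e-05) and -0.102 to IGHG2B (22 of 24, permutation adjusted p = 2.5e-05). It was -0.0264 to IGHG1 and -0.00120 to IGHG2C, neither of which passed the test (permutation adjusted p = 0.277 and 0.968). Without the removal of shared sequences, the difference to IGHG1 was -0.052 and passed (permutation adjusted p = 0.0265). At the depths of these pairs, the means were 0.725 ± 0.102 for IGHG3 against 0.752 ± 0.0805 for IGHG1, and 0.705 ± 0.109 for IGHG3 against 0.706 ± 0.107 for IGHG2C.

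V gene usage was compared as the percent of kept clonotypes, so that a clonotype with many counts did not weigh more. HCDR3 variants of 1 clone count as separate clonotypes, so a large clone can still weigh more. Of 86 V genes, 26 (30.2%) differed between IGHG3 and IGHM within spleens at an adjusted p under 0.05, 11 of them higher and 15 lower in IGHG3. IGHV4-1 made up 4.31 ± 2.41% of IGHG3 clonotypes and 0.286 ± 0.0907% of IGHM clonotypes (n = 24 spleens), and it was higher in IGHG3 in 24 of 24 spleens (sign-flip permutation test, adjusted p = 9.56e-05). Its IGHG3 range, 0.975% to 9.52%, did not overlap the IGHM range, 0.130% to 0.462%. IGHV8-5, the V gene of the clonotype found in every spleen, was at 1.72 ± 1.81% against 0.282 ± 0.0616% (higher in 23 of 24). The clonotype itself counts once per spleen in this measure, but HCDR3s that differ from it count as well. As deposited, the pattern of AQM, any 2 residues and FAY made up 16.7% of the IGHG3 clonotypes of IGHV8-5 and 0.893% of its IGHM clonotypes. The ARLGYYG pattern made up 18.9% of the IGHG3 clonotypes of IGHV4-1 and 2.05% of its IGHM clonotypes.

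IGHV7-3 was at 3.18 ± 1.56% of IGHG3 and 1.48 ± 0.201% of IGHM clonotypes (higher in 22 of 24), and IGHV2-3 at 2.05 ± 1.28% and 1.09 ± 0.173% (18 of 24). The smaller excess of IGHV1-53, 5.12 ± 1.23% against 4.37 ± 0.683%, also passed the test (permutation adjusted p = 0.0315). The largest deficits were those of IGHV1-64, at 2.43 ± 0.784% against 3.77 ± 0.269%, and IGHV1-72, at 1.96 ± 0.672% against 2.99 ± 0.22%, each lower in 23 of 24 spleens. IGHV1-18, IGHV1-69 and IGHV1-50, further members of the large V1 family, differed by -0.865, -0.809 and -0.667 percentage points.

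**Figure D4:**
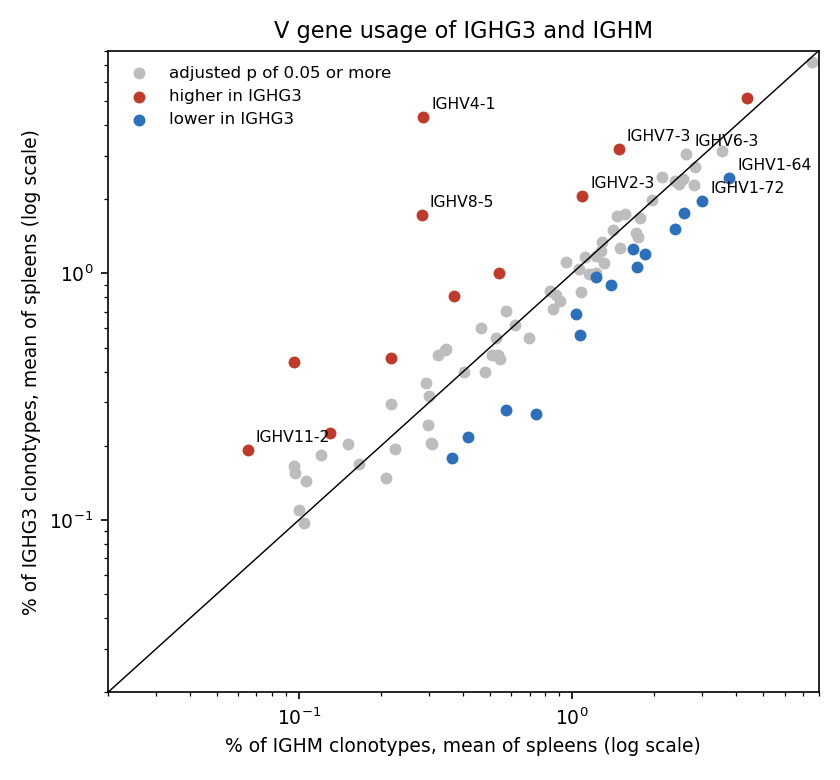
V gene usage of IGHG3 against IGHM, each as the mean percent of clonotypes over 24 spleens, both axes on a log scale; each point is 1 of 86 V genes, red and blue mark those higher or lower in IGHG3 at an adjusted p under 0.05, and the line marks equal usage. IGHV4-1 (4.31% and 0.286%) and IGHV8-5 (1.72% and 0.282%) lie farthest above the line among the named genes.

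Against the other IgG subclasses together (IGHG1, IGHG2B and IGHG2C), 37 of 83 V genes (44.6%) differed, 11 higher and 26 lower in IGHG3. IGHV4-1 (4.31 ± 2.41% against 0.554 ± 0.251%), IGHV7-3 (3.18 ± 1.56% against 1.2 ± 0.312%), IGHV6-3 (3.04 ± 1.37% against 1.06 ± 0.291%) and IGHV8-5 (1.72 ± 1.81% against 0.313 ± 0.182%) were higher in IGHG3 in 24 of 24 spleens each (sign-flip permutation test, adjusted p = 0.000104 each). IGHV6-6, IGHV2-3 and IGHV9-3 were higher as well, by 0.964, 1.12 and 0.748 points. IGHV1-64, IGHV1-72 and IGHV1-81 were lower, with differences of -1.49, -1.15 and -1.05 points. The V1 genes that were low against IGHM were therefore also low against the other IgG.

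A list of V genes chosen as tied to B-1 or marginal zone B cells or to carbohydrate antigens was followed as a group. Its 6 members with enough clonotypes were IGHV11-2 (phosphatidylcholine), IGHV7-1 (phosphorylcholine), IGHV6-3 and IGHV6-6 (the J606 family), and IGHV10-1 and IGHV10-3. For the IGHV10 genes no such tie is given here, and IGHV4-1 was not on the list. Against IGHM, 1 of 6 was higher and 0 lower, namely IGHV11-2 at 0.192 ± 0.188% against 0.0650 ± 0.0162% (higher in 16 of 24 spleens, permutation adjusted p = 0.0129). Over all 86 genes, 12.8% were higher and 17.4% lower, so the list's count is near that of all genes. The list's median difference was 0.136 points, against -0.0335 over all 86 genes. Against the other IgG, 4 of 6 were higher and 0 lower, namely IGHV6-3, IGHV6-6, IGHV10-1 and IGHV11-2, whereas 13.3% of all 83 genes were higher and 31.3% lower. The median was 0.321 points there, against -0.0835 over all 83.

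Few V genes of IGHG3 passed the test between groups. Of 85 V genes, 2 (2.35%) differed between NOD-FMT and PBS-T spleens, and 11 had an unadjusted p under 0.05. IGHV1-76 made up 1.70% to 3.69% of IGHG3 clonotypes in NOD-FMT spleens (mean 2.49 ± 0.616%, n = 10) and 0% to 2.25% in PBS-T spleens (mean 1.12 ± 0.624%, n = 9; exact permutation test, adjusted p = 0.0156). All PBS-T spleens but that of mouse 7 lay below the NOD-FMT range. IGHV1-59 made up 0.851% to 4.16% in NOD-FMT and 0% to 1.26% in PBS-T spleens (means 1.59 ± 0.970% and 0.510 ± 0.441%, exact permutation adjusted p = 0.0386). Its highest value was that of NOD-FMT mouse 3, whose leading clonotype used IGHV1-59. Without that mouse the difference was 0.798 points (exact permutation adjusted p = 0.0396). The NC spleens, which were not in this test, partly lay inside the NOD-FMT ranges. In NC mice 1 to 5, IGHV1-59 was 0.228%, 1.49%, 1.11%, 1.23% and 0.554%. IGHV1-76 was 1.37%, 0%, 2.04%, 1.23% and 1.29% in the same mice. Both calls were lost when only sequences with at least 2 counts were used, with differences of 1.41 points for IGHV1-76 and 1.02 for IGHV1-59 in place of 1.37 and 1.08. They were also lost when clonotypes were weighted by counts, with differences of 2.58 and 3.71 points. That of IGHV1-59 was also lost when any 1 of 10 mice was left out (NOD-FMT 6, 7 or 9, or PBS-T 1, 2, 3, 4, 5, 6 or 8; adjusted p from 0.0542 to 0.115).

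The V genes that set IGHG3 apart from IGHM did not pass the test between the groups. IGHV8-5 was at 3.04 ± 2.20% in NOD-FMT and 0.8 ± 0.494% in PBS-T spleens (exact permutation adjusted p = 0.144), and IGHV4-1 at 3.18 ± 1.57% and 5.12 ± 2.99% (adjusted p = 0.444, exact permutation). Of the list of 6, 0 differed between the groups by the exact permutation test, and IGHV10-3 had an unadjusted p of 0.0181 (adjusted p = 0.231).

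J gene usage is given as a description. IGHJ2 was the commonest J gene of IGHG3 clonotypes with a median of 37.8% over spleens, followed by IGHJ4 (26.2%), IGHJ1 (19.4%) and IGHJ3 (13.6%). The mean HCDR3 of IGHG3 clonotypes had 11.4 ± 0.299 residues (SD, n = 24), and a median of 14.4% of clonotypes had 8 residues or fewer. It was shorter than that of IGHG2C, IGHG1, IGHG2B and IGHA, with mean differences of -0.398, -0.293, -0.268 and -0.179 residues (sign-flip permutation tests, adjusted p from 5e-05 to 0.00205). The difference to IGHA did not pass when clonotypes were weighted by counts (-0.223, permutation adjusted p = 0.305) or in PBS-T spleens alone (-0.133, exact permutation adjusted p = 0.127). The difference to IGHM was -0.0280 residues (permutation adjusted p = 0.682), and with sequences of at least 2 counts only, it turned to 0.546 (permutation adjusted p = 2.5e-05). NOD-FMT and PBS-T spleens had means of 11.3 ± 0.243 and 11.5 ± 0.228 residues, a difference within the spread between mice (exact permutation test, p = 0.231, adjusted p = 0.577). Weighted by counts, it was -0.708 residues (exact permutation test, p = 0.0387, adjusted p = 0.0968).

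IGHG3 clonotypes carried more mutations than IGHM and fewer than most switched isotypes. Mutations were counted as mismatches to the germline V gene, averaged per clonotype and then per spleen. IGHG3 had 2.48 ± 0.601 (SD, n = 24) and IGHM 0.640 ± 0.352, and IGHG3 was higher in 24 of 24 spleens (sign-flip permutation test, adjusted p = 5e-05). IGHA had 3.37 ± 0.463 and IGHG1 3.32 ± 0.518. IGHG3 was lower than these in 22 and 21 of 24 spleens (permutation adjusted p = 5e-05 and 0.000133). IGHG2C, at 2.86 ± 0.508, was above IGHG3 in 21 of 24 spleens (permutation adjusted p = 0.000187). The difference to IGHG2B, at 2.65 ± 0.491, was -0.171 and did not pass the test (permutation adjusted p = 0.0543). It passed without the removal of shared sequences (-0.196), with sequences of at least 2 counts (-0.184), with mismatches above the commonest IGHM number of the V gene (-0.208) and in NOD-FMT spleens alone (-0.414), with permutation adjusted p from 0.00195 to 0.0274. In PBS-T spleens alone, the differences to IGHA, IGHG1 and IGHG2C were -0.555, -0.367 and -0.300 and did not pass (exact permutation adjusted p = 0.117, 0.186 and 0.182), and that to IGHG2B was 0.111 (exact permutation adjusted p = 0.531). When clonotypes were weighted by their counts, the differences to IGHG1, IGHG2B and IGHG2C changed sign, to 0.0543, 0.194 and 0.209, and none passed the test.

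The mutation level of IGHG3 varied more within the groups than between them. It was 1.85 to 3.22 in NOD-FMT spleens (median 2.38), 1.28 to 3.81 in PBS-T spleens (median 2.70) and 1.60 to 3.10 in NC spleens (median 2.63). The means of NOD-FMT and PBS-T mice differed by -0.114 (exact permutation test, p = 0.702). PBS-T mice spanned the wider range, with PBS-T mice 3 and 5 lowest and PBS-T mouse 8 highest of all. Unmutated sequences, those with 0 deposited mismatches, made up 17.8% to 39.7% of the IGHG3 sequences in NOD-FMT, 17% to 45.9% in PBS-T and 19.9% to 42.3% in NC spleens. Only 1 of 1644 unique IGHG3 sequences of IGHV8-5 had 0 mismatches, so nearly all of that gene counted as mutated. IGHV8-5 made up a mean of 3.04% of IGHG3 clonotypes in NOD-FMT and 0.8% in PBS-T spleens.

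About 1 in every 2 IGHG3 clonotypes of a spleen was also found there as IGHM. The share was 49.9 ± 4.21% (SD, n = 24), against 30.7 ± 4.55% for IGHG2C, 22.4 ± 4.70% for IGHG2B, 21.2 ± 6.45% for IGHG1 and 19.8 ± 4.58% for IGHA. IGHG3 was higher in 24 of 24 spleens in each of these comparisons (sign-flip permutation tests, adjusted p = 1e-05 each, the smallest that 100000 resamples can give). These clonotypes held most of the IGHG3: a median of 85.1% of the kept IGHG3 counts of a spleen (range 69.0% to 96.2%). A median of 40.3% of IGHG3 clonotypes had no other isotype in their spleen.

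By medians over spleens, IGHG2B (21.8% of IGHG3 clonotypes), IGHA (20.9%) and IGHG2C (19.6%) were the next most frequent partners, and IGHG1 (4.52%) was rare. IGHG1 also had fewer clonotypes, 14662 as deposited, against 70884 for IGHG2B, 99223 for IGHA and 33200 for IGHG2C. The partner shares were not adjusted for this. In a spleen, 20.9 ± 3.88% of IGHG3 clonotypes were also IGHA, against 17.2 ± 3.98% of IGHG2B and 15.7 ± 4.17% of IGHG2C clonotypes (sign-flip permutation tests, adjusted p = 2.67e-05 and 2e-05). The difference to IGHG2B did not pass with sequences of at least 2 counts (1.27 points, permutation adjusted p = 0.358) or in PBS-T spleens alone (2.52 points, exact permutation adjusted p = 0.104). For IGHG1 it was 19.3 ± 5.77%, and that difference did not pass the test (permutation adjusted p = 0.21). Clonotypes that were also IGHA held a median of 53.9% of the IGHG3 counts, from 18.3% in PBS-T mouse 2 to 89.9% in NOD-FMT mouse 3.

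**Figure D5:**
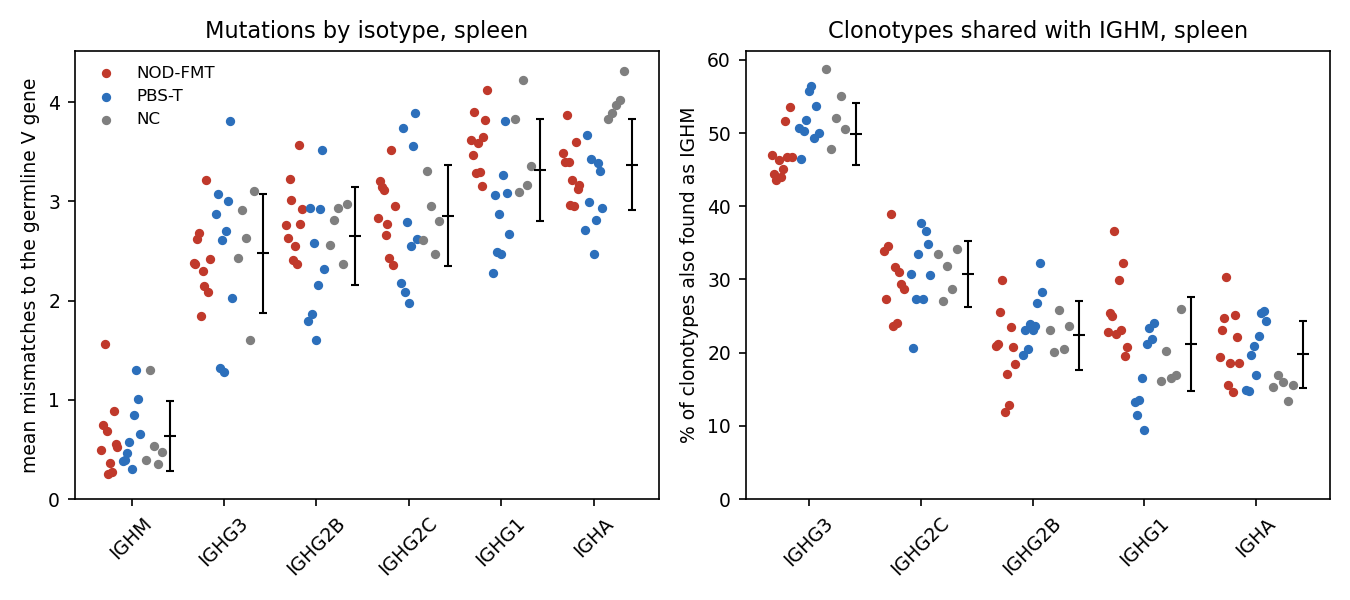
Left, mean mismatches to the germline V gene per clonotype, and right, percent of clonotypes of an isotype also found as IGHM, in the 24 spleens; each point is 1 spleen, coloured by group, and bars show the mean ± SD over all spleens. IGHG3 lies between IGHM and the other switched isotypes on the left (2.48 against 0.640 and 2.65 to 3.37) and above all others on the right (49.9% against 19.8% to 30.7%).

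The share of IGHG3 clonotypes also found as IGHM was lower in NOD-FMT mice. It ran from 43.6% to 53.6% in the 10 NOD-FMT spleens (mean 46.9 ± 3.26%) and from 46.4% to 56.5% in the 9 PBS-T spleens (mean 51.6 ± 3.20%). The groups overlapped, and NOD-FMT mice 6 and 8 lay above the PBS-T median. The means differed by -4.69 percentage points (two-sided exact permutation test over 92378 splits, p = 0.0071, adjusted p = 0.0355 over 5 comparisons). In the 5 NC spleens the mean was 52.8 ± 4.24%. NOD-FMT spleens also held more IGHG3 clonotypes, with medians of 1010 against 489. With every spleen thinned to 71859 counts, the difference was -6.96 points (exact permutation adjusted p = 0.00108), and with sequences of at least 2 counts it was -7.87 (exact permutation adjusted p = 0.00341). The thinning acted on whole libraries, where the median IGHG3 share was 3.02% in NOD-FMT and 1.03% in PBS-T spleens. It therefore did not bring IGHG3 to one depth. How far the share also found as IGHM follows the amount of IGHG3 was not tested. Leaving out any 1 of NOD-FMT mice 1, 2, 3, 4, 5, 7, 9 and 10 or PBS-T mice 4, 5, 6 and 8 raised the adjusted p of the exact test above the threshold, to between 0.0518 and 0.0729, with differences of -4.08 to -4.69 points. The share also found as IGHA was 21.6 ± 3.16% in NOD-FMT and 19.9 ± 5.40% in PBS-T mice, a difference within the spread (exact permutation test, p = 0.407, adjusted p = 0.679).

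In the LG, 364 IGHG3 clonotypes were found over 22 mice, and 251 of them came from PBS-T mouse 5, whose library stood apart. Over all mice, 68 of the 364 (18.7%, 95% Wilson interval 15% to 23%) were present in the spleen of the same mouse with any isotype. Without PBS-T mouse 5, it was 64 of 113 (56.6%, 47.4% to 65.4%), whereas in that mouse it was 4 of 251 (1.59%). Without NC mouse 2, it was 18.3%. Of the 113, 31.9% were IGHG3 in the own spleen, 39.8% IGHM and 39.8% IGHA, and 29.2% were also IGHA in the LG itself. The intervals cover counting error only.

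Only 4 mice had at least 10 IGHG3 clonotypes in the LG, so mutations and length were described there and not tested. The mean mutations were 2.00 in NOD-FMT mouse 4, 1.34 in NOD-FMT mouse 7, 0.806 in PBS-T mouse 9 and 3.39 in PBS-T mouse 5, against 1.85, 3.22, 2.02 and 1.28 in their spleens. The LG was above the spleen in 2 of them and below in 2. The largest LG clonotypes were small in counts. IGHV8-8/IGHJ1 ARMVYDGYLWYFDV had 81 counts in NOD-FMT mouse 4, with 7 IGHG3 counts in its spleen, and IGHV1-80/IGHJ3 ARGAY had 58 in PBS-T mouse 2, with 132 IGHG3 and 3826 IGHM counts in its spleen. IGHV2-2/IGHJ4 ARWWLLGAMDY led in PBS-T mouse 5 (61 counts) and NC mouse 5 (2 counts) and was absent from the IGHG3, IGHM and IGHA of both spleens. IGHV8-6/IGHJ4 WRDGYDYDDYAMDY led in NC mouse 3 with 30 counts, and it was 1 of 4 clonotypes with 1 count each in NC mouse 2. Its 43 mismatches equal the commonest number among all IGHM sequences of IGHV8-6, so they say little of mutation.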

How the data were processed

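BCR heavy-chain libraries of spleen and LG were examined for 10 NOD-FMT, 9 PBS-T and 5 NC mice. The design text gives more PBS-T mice than the 9 analysed here. The authors merged paired reads with PEAR, clustered them by unique molecular identifier with Clustal Omega, and assigned constant genes from IMGT and V and J genes with IgBLAST. Per the submitters' processing notes the build is mm10. The germline release is not given in the sources used here. Each deposited unique sequence has its count of consensus sequences, not normalized, and a mismatch number against its germline V gene, and 11 LG libraries are marked as merged. The reverse primers lie in the first constant domain. The annealing part of primer mnhr5_g matched the Ighg3 transcript with 0 mismatches (bases 21 to 41) and those of Ighg1, Ighg2b and Ighg2c with 4, 4 and 5, and it is shown as the primer of IGHG3:
mnhr5_g: gccagggaccaagggatagac

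A nucleotide sequence present without difference in at least 3 mice of one tissue was removed, except where values are given as deposited. The mouse was the replicate. Spleens with at least 30 clonotypes, and V genes with a mean of at least 0.1%, were used. Groups (NOD-FMT against PBS-T) were compared by exact permutation over all splits, and isotypes within spleens by sign-flip permutation with 100000 resamples, all two-sided with Benjamini-Hochberg adjustment and a threshold of 0.05. Evenness used the mean of 10 thinned draws. Replicate numbers did not pair the mice: correlations between same-numbered mice ran from -0.265 to 0.0953 over 9 pairs. The V gene usage tests were run on simulated V gene usage, and the tests of the other measures were not run on simulated data. Gene positions are those of GRCm38.

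IGHG3, its lists and the alternatives were chosen with earlier results of these data known. Clonotypes named are the largest of each spleen, those with at least 10% of the IGHG3 of a spleen and the 5 in most spleens. V genes named are the 10 with the largest called differences and the list. Clonotypes named beyond that were chosen after their values were seen. Added after seeing the data were mismatches above the commonest IGHM value of a V gene, LG values without PBS-T 5 or NC 2, and shared sequences kept in the spleen with most counts. Wilson intervals are at 95%, and the limit for a share of 0 is 3 counts of the total. Matplotlib 3.10.9, PyArrow 21.0.0, pandas 2.3.3, SciPy 1.17.1 and NumPy 2.4.6 were used under Python 3.11.15.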

Additional observations from a re-analysis of the deposited data

Results flagged for a closer look

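The difference in mutations between IGHG3 and IGHG1 or IGHG2B of the same spleen was not the same in NOD-FMT and PBS-T mice. This was by an exact permutation test of the difference itself with adjustment over 23 comparisons. IGHG3 minus IGHG1 averaged -1.18 in NOD-FMT and -0.367 in PBS-T spleens, a difference of -0.814 (n = 10 and 9, exact permutation adjusted p = 0.0381). IGHG3 minus IGHG2B averaged -0.414 and 0.111, a difference of -0.525 (exact permutation adjusted p = 0.0248). For IGHG2C the difference was -0.192 and did not pass the test (exact permutation adjusted p = 0.504).

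Sharing with other isotypes also differed between the groups in relation to IGHG1. The share of clonotypes also found as IGHM was higher in IGHG3 than in IGHG1 by 21.1 percentage points in NOD-FMT and 34.4 in PBS-T spleens, a difference of -13.3 (exact permutation adjusted p = 0.0159). The share also found as IGHA was higher in IGHG3 by 5.82 points in NOD-FMT spleens and differed by -1.61 points in PBS-T spleens, a difference of 7.43 (exact permutation adjusted p = 0.025). All 4 of these compare IGHG3 with IGHG1 or IGHG2B, and the mutations of IGHG3 itself and its share also found as IGHA did not pass the test between the groups.

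Of 27 groups of 4 to 10 libraries examined for a library far from the others by Dixon's ratio, 4 libraries were found, where chance gives about 1 in 20 groups. The IGHG3 share of the LG was 0.197% in NOD-FMT mouse 4, where the other NOD-FMT mice reached 0.0250%, and 0.270% in PBS-T mouse 5, whose LG library stood apart. The largest clonotype held 36.8% of the IGHG3 counts in the spleen of NOD-FMT mouse 3 and 55.4% in that of NC mouse 3.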

How the results depend on the processing

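Over the results that answer a comparison, 364 values under an alternative counted as unchanged, and the others follow. Unchanged means, with a test, the same side of the threshold and the same direction, and without a test, a move smaller than the spread between mice. The share of the largest clonotype, an alternative to evenness, runs opposite to it and was read so. Some untested values changed sign within that spread. LG mutations minus those of the spleen went from -0.212 to 0.317 (sequences in 2 or more mice removed) and 1.04 (at least 2 counts), and in NC spleens alone the share also IGHA minus that of IGHG1 was -1.19 points and length minus that of IGHM 0.0877. Keeping shared sequences in the spleen with most counts changed no call. The cause of each change was not tested.

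Leaving out 1 mouse gave ranges of -5.43 to -4.08 points for the IGHG3 clonotypes also IGHM in NOD-FMT against PBS-T, 1 to 3 V genes called between the groups, -0.0247 to 0.0017 for evenness (above 0 without NOD-FMT 3), -0.269 to 0.0473 for mutations, and, in the LG, -1.72 to 0.862 for mutations between the groups. The part of LG clonotypes in the own spleen was 18.3% without NC 2 and 56.6% without PBS-T 5.

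Weighted by counts, mutations of IGHG3 differed by 0.193 between NOD-FMT and PBS-T (exact permutation p = 0.682), by 0.0543 to IGHG1, 0.194 to IGHG2B and 0.209 to IGHG2C, HCDR3 length by -0.223 to IGHA (lost), 0 V genes were called between the groups, LG length was 1.10 above the spleen, and LG mutations differed by 0.712 between the groups. With sequences of at least 2 counts, length differed by 0.546 to IGHM, evenness by 0.0152 to IGHG2C, mutations by -0.184 to IGHG2B (now called), the share also IGHA by 1.27 points to IGHG2B (lost), 0 V genes were called between the groups, and 40.8% of LG clonotypes were in the own spleen. With clonotypes by HCDR3 nucleotides, evenness differed by 0.00437 to IGHG2C. Without removal of shared sequences, evenness differed by -0.052 to IGHG1 and mutations by -0.196 to IGHG2B, both now called. Above the commonest IGHM value, the latter was -0.208 (called).

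In PBS-T spleens alone, length differed by 0.0178 to IGHM and -0.133 to IGHA, mutations by 0.111 to IGHG2B, -0.367 to IGHG1, -0.300 to IGHG2C and -0.555 to IGHA, the share also IGHA by -1.61 points to IGHG1 and 2.52 to IGHG2B, none of them called, and 9 V genes differed from IGHM and 13 from other IgG. In NOD-FMT spleens alone, evenness differed by 0.0241 to IGHG2C, and mutations by -0.414 to IGHG2B and the share also IGHA by 5.82 points to IGHG1 were called. In NC spleens alone, the share also IGHM was 37.4 points above IGHA.

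Replicate numbers did not pair the mice. With a replicate block over 9 pairs, whose smallest exact p is 0.00391, the difference in clonotypes also IGHM was -4.41 points (exact permutation adjusted p = 0.0195) and 0 V genes were called between the groups, with IGHV1-76 and IGHV1-59 at an adjusted p of 0.111 (exact permutation). No block fit and no split by merged libraries was possible in the LG with 4 mice. Spleen IGHG3 rests on 332 to 111446 kept counts, and LG IGHG3 on 0 to 586, and LG differences were not tested.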

Other observations

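Clonotypes that IGHG3 shared with IGHM in a spleen had a median over spleens of 2.30 mutations per clonotype in their IGHG3 sequences. Sequences with 10 or more mismatches were a small part of IGHG3, with medians of 4.20% in NOD-FMT, 5.11% in PBS-T and 6.09% in NC spleens, and the highest value, 14%, was that of PBS-T mouse 8.

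For 5 of 90 V genes, the commonest number of mismatches among unique IGHM sequences was not 0. It was 1 for IGHV1-69, IGHV2-6-1 and IGHV8-5, 8 for IGHV1S137 and 43 for IGHV8-6. With this number subtracted, the difference of IGHG3 to IGHG2B was -0.208 mismatches per clonotype (sign-flip permutation test over 24 spleens, adjusted p = 0.0199).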
